A study of Mus musculus with 8 samples.

Results

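Akr1b7 and 3 related aldo-keto reductases, Akr1b8, Akr1b3 and Akr1a1, were followed in hand-dissected dorsal pancreatic epithelia of e12.5 mouse embryos with and without a deletion of Sox9. They were chosen by name: every non-control probe that the scanner files label with one of these symbols, or with the older symbol Akr1a4 for Akr1a1, was taken. That gave 4 of 27828 gene names on the array, measured by 6 of 41174 probes. The family was chosen because Akr1b7 had the highest MUT minus WT difference of all genes, so the values of Akr1b7 are given as a description, with no test. Akr1b8, Akr1b3 and Akr1a1 came in through kinship with Akr1b7, and their differences were tested.

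The study compared 4 arrays labelled MUT, from Sox9fl/fl; Pdx1-Cre embryos, with 4 arrays labelled WT, from Sox9fl/fl littermates without the Cre. Both genotypes carried the floxed Sox9 alleles on a mixed FVB/N and C57Bl/6J background, and the Pdx1-Cre parent was on C57Bl/6J. Cre under the Pdx1 promoter acts in the pancreatic epithelium and other Pdx1-expressing foregut cells, and loss of Sox9 and presence of Cre cannot be told apart here. Each array held RNA of 3 pooled dorsal pancreata dissected by hand, of which about 250 ng was labelled with Cy3. The labels give 4 arrays per genotype where the series text speaks of fewer biological replicates. The 4 were treated as separate pools, and p-values measure the spread between these arrays. Whether any array of a genotype repeats a pool is not stated, and every p-value rests on the 4 being independent.

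Aldo-keto reductases are soluble enzymes that use NADPH to reduce aldehydes and ketones to alcohols. Akr1b3 is mouse aldose reductase, which turns glucose into sorbitol in the polyol pathway, and Akr1a1 is aldehyde reductase, which makes gulonate from glucuronate on the way to ascorbate. Akr1b7 was first known as a major protein of the mouse vas deferens and is abundant in the adrenal cortex, where it reduces the aldehyde left by side-chain cleavage of cholesterol and makes prostaglandin F. Akr1b8 was first known as a protein induced by fibroblast growth factor and reduces lipid-derived aldehydes.

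On each array the 75th percentile of the processed signal lay between 372 and 641, and 59.4% to 77.7% of spots were well above background. Sox9 had log2 signals, relative to the 75th percentile of its array, of -0.61, -1.79, -0.0073 and 0.77 in MUT replicates 1 to 4, against 3.01, 2.13, 1.82 and 2.19 in WT replicates 1 to 4. Sox9 was thus lower in every MUT pool, with a MUT minus WT difference of -2.70 (SE 0.517, limma adjusted p = 0.0252). Without MUT replicate 1 or WT replicate 1, 2 or 4 the adjusted p of Sox9 was 0.0524 to 0.0732. Whether its probe lies in the deleted part of the gene was not analysed here. All 8 pancreatic epithelium markers fell, a list that includes Sox9 itself, against 3.82% of all genes called lower in MUT. Their summed level on the linear scale (1 being the 75th percentile of the array) was 4.15 to 14.5 in MUT and 37.5 to 61.5 in WT. In bulk samples, fewer cells of a type and less RNA per cell cannot be told apart. The arrays lay on 3 slides: slide 1 held MUT replicate 3 and WT replicate 2, slide 2 held MUT replicates 1 and 4 and WT replicate 3, and slide 3 held MUT replicate 2 and WT replicates 1 and 4.

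Akr1b7 gave a clear signal in all MUT pools and almost none in WT pools. Its single probe, A_51_P331288, lies at chr6:34353063-34353122 on the plus strand of mm8. It is a 60-base oligo, and its opening 30 bases are shown because the whole Akr1b7 result rests on this 1 probe.
Akr1b7 probe, opening bases: gagatccgtgcatgatagattccttcgtct
The longest run of bases it shared with any of 41173 probes of other names was 15, with a probe for Bmp5, and its longest run shared with a probe of the other members or of Akr1b10 was 8. Only probe sequences were compared and not whole transcripts, so binding of this probe to transcripts of other genes was not tested.

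The processed signal of Akr1b7 was 949, 1021, 658 and 714 in MUT replicates 1 to 4. It was 10.1, 12.0, 25.1 and 20.5 in WT replicates 1 to 4. The groups were far apart, and the spot was marked well above background on 4 of 4 MUT arrays and on 2 of 4 WT arrays, those of replicates 3 and 4. Relative to the 75th percentile of each array, Akr1b7 averaged 0.61 ± 0.32 in MUT pools and -5.06 ± 0.54 in WT pools on the log2 scale (SD, n = 4 each). The difference was 5.68 (SE 0.281), or 51.1-fold higher in MUT, and it ranked 1 among 18506 genes, as it had to by the choice of the family.

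The size of that fold differed between the processing settings. Before any correction the mean spot signal was 972, 1007, 700 and 751 in MUT replicates 1 to 4, over local backgrounds of 69 to 92.5. In WT replicates 1 to 4 it was 103, 111, 132 and 117, over local backgrounds of 75.5 to 99.5. In the value table that the authors deposited, whose background treatment the sources do not state, Akr1b7 had 814, 980, 816 and 613 in MUT and 71, 63, 68 and 73 in WT. That table gave an 11.6-fold higher level in MUT, a normexp background correction gave 9.97-fold, and setting dim spots to the lowest detected signal of their array gave 44.7-fold. The normexp correction adds an offset of 50, which is above every WT processed signal of Akr1b7. Akr1b7 kept rank 1 under all 17 alternative settings, which reuse the arrays on which it was chosen.

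**Figure D1:**
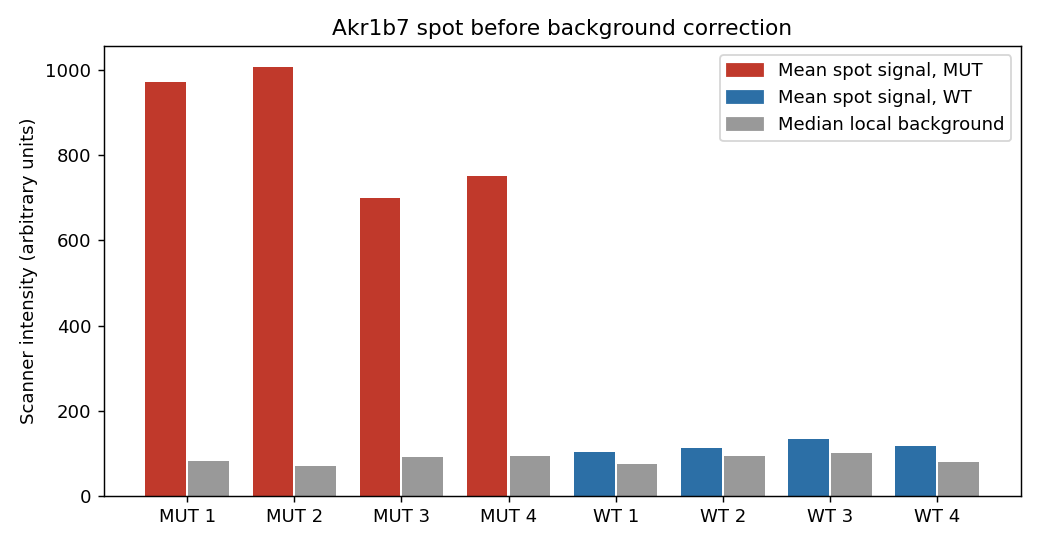
Mean scanner intensity of the Akr1b7 spot (coloured bars) and the median local background around it (grey bars) on each of the 8 arrays, in arbitrary units, MUT arrays left of WT arrays. MUT spots lie between 700 and 1007, while WT spots lie between 103 and 132, near their own backgrounds of 75.5 to 99.5.

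The difference in Akr1b7 was present on every slide. Within slide 1 it was 6.36, within slide 2 it was 4.80 and within slide 3 it was 6.05 on the log2 scale. Embryo sex also ran in part with genotype: the Y-linked helicase gene Ddx3y had a log2 signal of -1.37 to 0.11 in the 4 MUT pools and of -0.82 in WT replicate 3, but of -6.85, -4.86 and -7.44 in WT replicates 1, 2 and 4. Xist, the RNA of female cells, had -5.73 in MUT replicate 1, but 3.11, 3.54 and 3.56 in MUT replicates 2 to 4. In WT replicates 1 to 4 Xist had 4.75, 4.42, 3.44 and 4.52. Ddx3y signal thus does not mean that a pool was all male. Akr1b7 is known to respond to androgen in the mouse vas deferens. WT replicate 3, the WT pool with Ddx3y at the MUT level, had the highest WT value of Akr1b7, at -4.39, and the MUT mean was 32.1-fold above it. In the authors' deposited value table that pool, at 68, lay below WT replicates 1 and 4, at 71 and 73. The part of embryo sex in the difference of Akr1b7 was not tested.

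Among the MUT pools, Akr1b7 was lowest in replicate 4, at a log2 signal of 0.19, against 0.62, 0.97 and 0.67 in MUT replicates 1 to 3. Replicate 4 was also the MUT pool with the highest Sox9 signal and the highest summed pancreatic epithelium markers (Sox9 included), 14.5 against 7.04, 4.15 and 7.71 in MUT replicates 1 to 3. The same pool had the lowest MUT sums of mesenchyme (337), mesothelium (7.10), endothelium (19.0), macrophage (23.5) and liver (115) markers. It did not have the lowest MUT sum of steroidogenic or of stomach and intestine markers. These are values of 4 pools, with no test.

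Akr1b8, the gene whose kinship to Akr1b7 is close in sequence and in position, was modestly higher in MUT pools and missed the threshold. Its probe A_51_P128987 lies at chr6:34298496-34298555 on the plus strand of mm8, and its opening bases are shown beside those of Akr1b7.
Akr1b8 probe, opening bases: aacggacatctccttcactaatttgacctg
The processed signal of Akr1b8 was 3279, 3812, 3843 and 3265 in MUT replicates 1 to 4, and 1736, 2931, 2498 and 2396 in WT replicates 1 to 4. After scaling, its log2 signal was 2.41, 2.87, 3.22 and 2.39 in MUT, against 2.22, 2.24, 2.25 and 1.90 in WT. Every MUT pool lay above every WT pool, though MUT replicates 1 and 4 were close to 3 of the WT pools. The difference was 0.57 (SE 0.203, limma adjusted p = 0.164 over 18506 genes), or 1.48-fold with a 95% interval of 1.07 to 2.05. A two-sided exact permutation test of the 4 against 4 arrays gave p = 0.0286, the smallest this design allows. Of all genes tested, 7.24% had every MUT array above every WT array, so such a split is common on these arrays. Within slides the difference was 0.98, 0.15 and 0.81 for slides 1 to 3, so on slide 2 the 2 genotypes were close. The adjusted p ranged from 0.0998 to 0.360 over the 17 alternatives.

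Akr1b3, aldose reductase itself, did not differ beyond the spread between pools. Of its probes, A_52_P10041 lies at chr6:34234192-34234251 and A_52_P346706 at chr6:34236756-34239171, both on the minus strand of mm8. The second covers 2416 bases of genome with 60 bases of probe, so it spans a splice junction, and it is shown whole because it reads an open frame with no stop codon.
Akr1b3 junction probe: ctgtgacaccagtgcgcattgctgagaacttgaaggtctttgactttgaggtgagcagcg
With A_52_P10041, the log2 signal of Akr1b3 was 4.16, 4.15, 4.39 and 3.77 in MUT replicates 1 to 4, against 4.12, 3.69, 3.72 and 3.88 in WT replicates 1 to 4. MUT replicate 4 fell among the WT pools and WT replicate 1 among the MUT pools. The difference was 0.27 (SE 0.161, limma adjusted p = 0.461, exact permutation p = 0.143), a fold of 1.20 with a 95% interval of 0.930 to 1.56. The junction probe gave a like difference for Akr1b3, 0.28 (exact permutation p = 0.143), with pools that again overlapped.

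A further probe that the files name Akr1b3, A_51_P422666, lies elsewhere, at chr1:55390116-55390175 on the plus strand of mm8. Its processed signal was 2.74 to 3.97 in MUT and 3.02 to 3.66 in WT, and it was well above background on 0 of 8 arrays, so it was not used for the gene.

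Akr1a1, the family member farthest from Akr1b7 by kinship, had signals in both genotypes that overlapped. Its probe A_51_P327295, named Akr1a4 in the files, lies at chr4:116135722-116135908 on the minus strand of mm8 and also crosses a splice junction.
Akr1a1 junction probe: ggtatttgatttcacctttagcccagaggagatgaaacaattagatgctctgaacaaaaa
The log2 signal of Akr1a1 was 4.71, 4.87, 5.08 and 4.66 in MUT replicates 1 to 4, against 4.88, 4.63, 4.61 and 4.65 in WT replicates 1 to 4. Its difference was 0.14 (SE 0.129, limma adjusted p = 0.694, exact permutation p = 0.2), a fold of 1.10 with a 95% interval of 0.898 to 1.35.

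**Figure D2:**
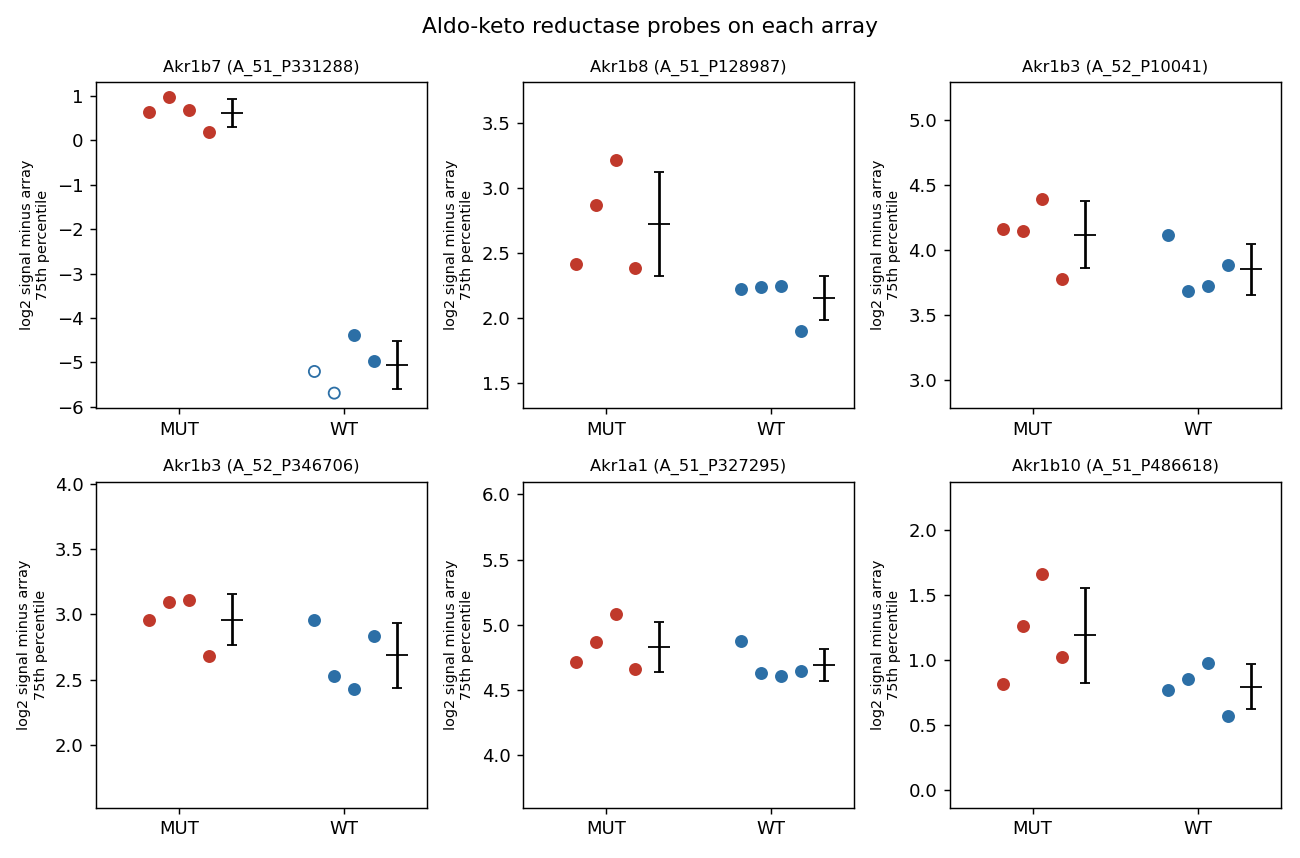
Log2 processed signal minus the 75th percentile of the array for the probes of Akr1b7, Akr1b8, Akr1b3 (both probes that gave signal), Akr1a1 and the neighbouring Akr1b10, with 1 point per array in replicate order and MUT left of WT. Open points were not well above background, bars show mean and SD (n = 4), and the Akr1b7 panel spans more log2 units than the others: its MUT mean is 0.61 and its WT mean -5.06, while the other panels differ by 0.14 to 0.57.

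Akr1b3, Akr1b8, Akr1b10 and Akr1b7 stand next to each other, in that order, among the protein-coding genes of mouse chromosome 6 in RefSeq. Akr1b10, a further aldose reductase-like enzyme listed in the files as 2310005E10Rik, had log2 signals of 0.82, 1.26, 1.67 and 1.02 in MUT replicates 1 to 4, against 0.77, 0.85, 0.98 and 0.57 in WT replicates 1 to 4. MUT replicate 1 lay below 2 of the WT pools, and the difference of Akr1b10 was 0.40 (SE 0.192, limma adjusted p = 0.324, exact permutation p = 0.0857). A dim second probe for Akr1b10 gave -0.18. The genes on either side of the cluster, taken by position alone, were also measured. Bpgm, the red cell enzyme of bisphosphoglycerate metabolism next to Akr1b7, differed by -0.06 (limma adjusted p = 0.939), Cald1, the caldesmon gene beyond it, by 0.31 (adjusted p = 0.355) and Slc35b4, a nucleotide sugar transporter gene next to Akr1b3, by 0.12 (adjusted p = 0.790). Akr1b7 was chosen for the highest difference of all genes, so no neighbour could have matched its size.

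Promoter sequence was taken from RefSeq (GRCm38.p6) for 3 of the 4 members, and the 250 bases before the start were searched on both strands for 5 short motifs. These were ACAAAG and ACAATG, cores bound by Sox factors, AAGGTCA, the site of Nr5a-type nuclear receptors, TGTTTAC, a forkhead motif, and TGACNNNGC, an antioxidant response core. The windows of Akr1b7, at chr6:34412112-34412361, and Akr1b8, at chr6:34353896-34354145, both on the plus strand, are shown with matches in capitals, since the 2 genes lie in 1 cluster and differed so unequally between the genotypes.
Akr1b7 promoter: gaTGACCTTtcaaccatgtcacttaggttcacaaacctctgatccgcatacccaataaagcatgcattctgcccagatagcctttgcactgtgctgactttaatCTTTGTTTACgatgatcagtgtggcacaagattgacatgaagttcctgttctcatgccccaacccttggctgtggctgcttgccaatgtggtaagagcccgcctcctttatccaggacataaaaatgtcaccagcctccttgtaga
Akr1b8 promoter: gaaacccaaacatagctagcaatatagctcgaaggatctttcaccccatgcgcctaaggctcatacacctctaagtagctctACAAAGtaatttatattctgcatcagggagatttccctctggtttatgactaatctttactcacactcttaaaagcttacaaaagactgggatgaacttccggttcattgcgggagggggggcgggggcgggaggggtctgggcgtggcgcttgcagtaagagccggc
In Akr1b7, an ACAAAG match on the minus strand began 146 bases before the start and overlapped a TGTTTAC match at 143 bases, and an AAGGTCA match on the minus strand lay at 248 bases. Akr1b8 and Akr1a1 each held 1 ACAAAG match, at 168 and 159 bases, and Akr1b10 held a TGTTTAC and an AAGGTCA match. Among 32851 promoters of the same length, 16.5% held ACAAAG, 10.7% ACAATG, 4.1% AAGGTCA, 3.2% TGTTTAC and 10.2% TGACNNNGC. A match is a description of these letters and not evidence of binding. The windows were aligned with gaps, and identity was counted over the paired bases only, with gapped bases left out. Akr1b7 matched Akr1b10 at 133 of 192 paired bases (69.3%) and Akr1b8 at 136 of 213 (63.8%). It matched the unlinked Akr1a1 at 128 of 210 (61.0%). Akr1b10 and Akr1a1 also matched at 133 bases, of 216 paired (61.6%), so the higher share for Akr1b7 and Akr1b10 goes with fewer paired bases.

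The other genes of the aldo-keto reductase family were set against the share of all genes called. Of all 18506 genes, 5.37% passed an adjusted p of 0.05 by limma, 1.55% higher and 3.82% lower in MUT. Of 17 other family members listed, 15 were on the array and 12 were tested, and of these 0 rose and 1 fell, with 4 below an unadjusted p of 0.05. That is 8.33% called, close to the share of all genes, so the count shows nothing particular to the family. Their median difference was -0.04, against 0.016 over all genes. The one that fell was Akr1c12, of the hydroxysteroid dehydrogenase branch, at -0.45, -0.75, -0.46 and 0.23 in MUT replicates 1 to 4 against 1.16, 0.70, 0.83 and 0.66 in WT replicates 1 to 4. All its MUT pools lay below all its WT pools, as for 7.99% of all genes, and the difference of Akr1c12 was -1.20 (SE 0.220, limma adjusted p = 0.0219). The accessions of that probe name the near-identical Akr1c13 as well, so the 2 genes cannot be told apart by it, while a second probe that lists only Akr1c12 gave -1.39. The call ended, at an adjusted p of 0.0540 to 0.0691, without MUT replicate 1, 2 or 3 or WT replicate 1, 3 or 4.

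Akr1c19, named after its values were seen, differed by -1.77 (SE 0.540) and missed the threshold (limma adjusted p = 0.106), and its second probe gave -1.60. The other differences ran from 1.13 for Akr1c14 and 1.04 for Akr1c18, both well above background on 4 of 4 MUT and 2 of 4 WT arrays, to -1.57 for Akr1cl, which was above background on 1 of 4 MUT and 4 of 4 WT arrays. None of these 3 passed the test. Akr7a5, an aflatoxin aldehyde reductase, had -0.09 and the potassium channel subunit Kcnab2 -0.02, each with adjusted p above 0.75.

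**Figure D3:**
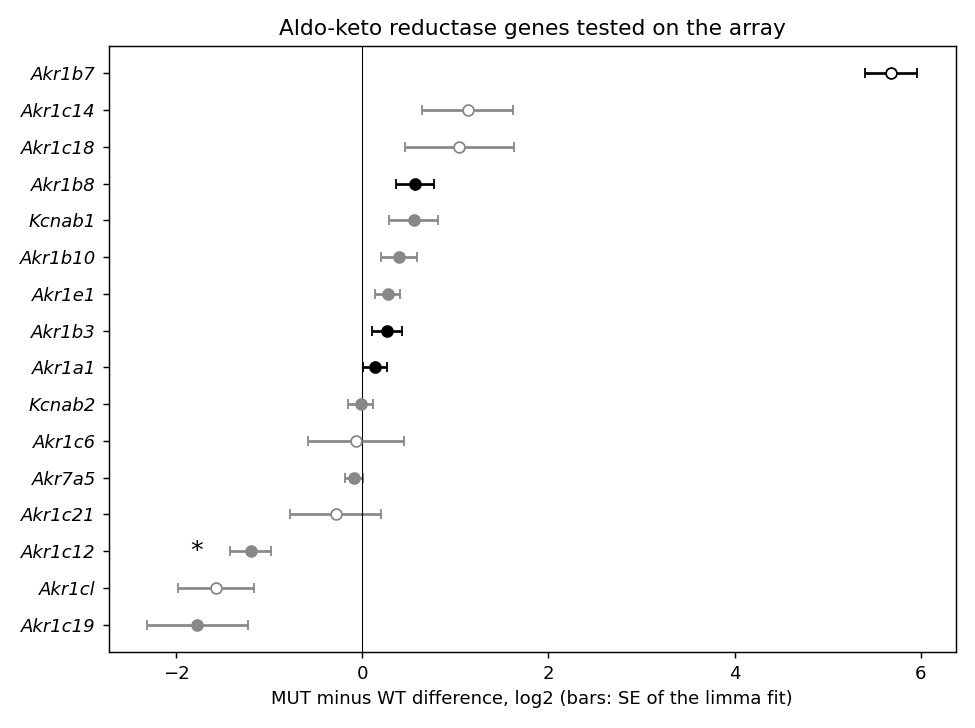
MUT minus WT difference on the log2 scale for the 16 aldo-keto reductase genes tested, with the SE of the limma fit. Black marks Akr1b7, Akr1b8, Akr1b3 and Akr1a1, open points were not above background on all 8 arrays, and the star marks Akr1c12, which passed the test; Akr1b7 lies at 5.68 and the others between -1.77 and 1.13.

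In 7 pathway lists around these enzymes, more genes fell than rose, as over all genes, where 1.55% were higher and 3.82% lower in MUT. Over 94 tested genes, 3 rose and 9 fell, or 12.8% called against 5.37% of all genes, and their median difference was 0.03. Epithelium markers fell in the same MUT pools, and their part in the 9 lower genes was not tested. In the polyol pathway, Sord, which makes fructose from the sorbitol of aldose reductase, had a difference of 0.25 (limma adjusted p = 0.540).

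In the ascorbate pathway that Akr1a1 feeds, the RNA of 1 gene was lower in MUT. Enzyme activity and ascorbate were not measured. Of 6 tested genes of glucuronate and ascorbate metabolism 0 rose and 1 fell, or 16.7% called against 5.37% of all genes. That gene was Gulo, gulonolactone oxidase, which makes ascorbate in rodents. Gulo had -0.29, -0.70, -0.91 and 0.67 in MUT replicates 1 to 4, against 2.07, 1.55, 1.60 and 1.53 in WT replicates 1 to 4. MUT pools all lay below WT pools, with a difference of -1.99 (SE 0.329, limma adjusted p = 0.0150), and MUT replicate 4, the MUT pool with the highest epithelium markers, was the highest MUT pool for Gulo.

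Among other aldehyde and carbonyl enzymes, 0 of 22 rose and 2 fell, or 9.09% called against 5.37% of all genes. The mitochondrial Aldh1b1 had a difference of -1.14 (limma adjusted p = 0.0269) and Aldh5a1, succinate semialdehyde dehydrogenase, of -0.85 (adjusted p = 0.0186), and each kept its call in 11 of 17 alternatives. Without MUT replicate 1 or 2 or WT replicate 4 the adjusted p of either was 0.0576 to 0.0795, and so was that of Aldh1b1 without WT replicate 1 or 2, while Aldh5a1 had 0.0523 without WT replicate 3. Of 21 genes of the Nrf2 pathway, which controls many detoxifying enzymes, 0 rose and 2 fell, or 9.52% called against the same 5.37%. Gsta3, a glutathione transferase that also isomerises steroids, was -0.03, -0.66, -0.88 and 0.998 in MUT replicates 1 to 4 against 3.16, 2.38, 2.52 and 2.87 in WT replicates 1 to 4. Its difference of -2.87 (SE 0.398, limma adjusted p = 0.00952) kept its call in 17 of 17 alternatives. Srxn1, sulfiredoxin, differed by -0.60 (adjusted p = 0.0401), a call that ended without any 1 of the 8 arrays, at 0.0530 to 0.0979.

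Of 11 tested nuclear receptors, 0 rose and 2 fell, or 18.2% called against 5.37% of all genes. Nr5a2, a pancreatic and hepatic receptor that binds the same short site as Nr5a1, was -1.03, -1.60, -1.26 and -0.12 in MUT replicates 1 to 4 against 2.11, 1.09, 1.38 and 1.32 in WT replicates 1 to 4. The difference of Nr5a2 was -2.48 (SE 0.340, limma adjusted p = 0.00952). Hnf4a, a receptor of endoderm, differed by -1.50 (SE 0.218, adjusted p = 0.0102), and the calls of both held in 17 of 17 alternatives.

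In the prostaglandin pathway, to which Akr1b7 adds a reductase, 2 of 14 tested genes rose and 1 fell. That is 21.4% called, against 5.37% of all genes. Pla2g4a, the phospholipase that releases arachidonate, differed by 0.69 (limma adjusted p = 0.0387) and Ptger3, a receptor for prostaglandin E, by 0.64 (adjusted p = 0.0173). Ptgr2, which reduces a prostaglandin breakdown product, differed by -0.49 (limma adjusted p = 0.0314). The calls of Pla2g4a and Ptgr2 each held in 7 of 17 alternatives and that of Ptger3 in 11. Without 1 array the adjusted p was up to 0.102 for Pla2g4a (all but MUT replicate 4 ended the call), up to 0.100 for Ptgr2 (all but MUT replicate 3) and up to 0.0604 for Ptger3 (MUT replicate 2 and WT replicates 3 and 4).

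**Figure D4:**
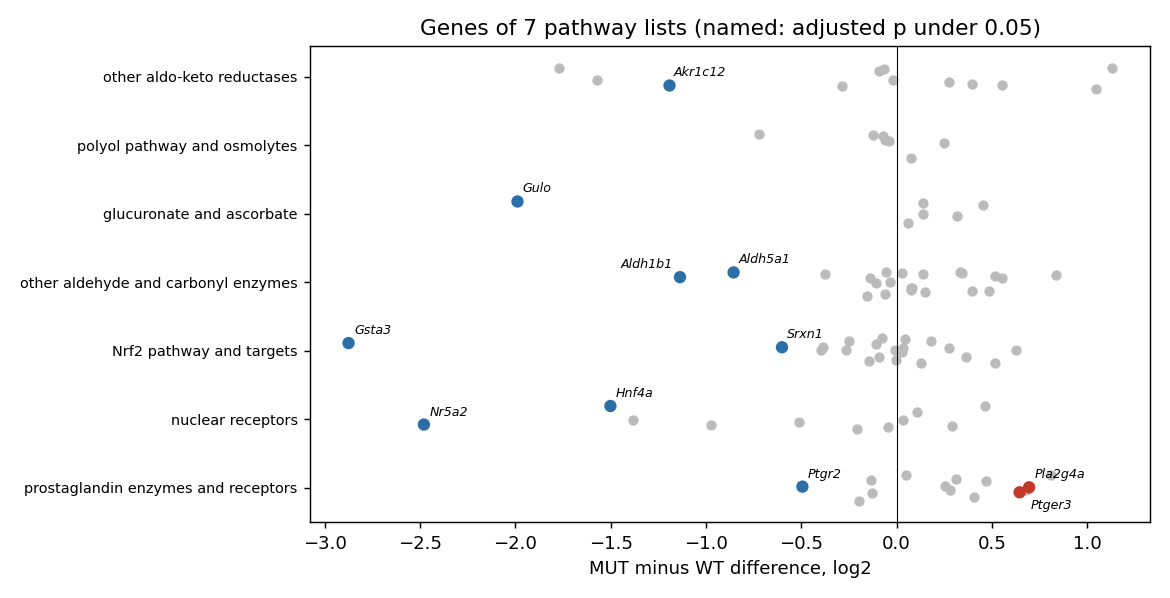
MUT minus WT difference on the log2 scale of 93 tested genes in 7 pathway lists, 1 point per gene. Named points passed an adjusted p of 0.05: 2 higher in MUT (red) and 9 lower in MUT (blue).

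Markers of other cell types moved with genotype beside Akr1b7. Over all genes, 1.55% were called higher and 3.82% lower in MUT. Of 11 tested steroidogenic markers, where Akr1b7 is best known, 0 rose and 0 fell, 3 had an unadjusted p under 0.05, and their summed level was 9.65 to 11.4 in MUT and 10.6 to 12.9 in WT. The smallest adjusted p among them belonged to Fdxr, at -0.59 (limma adjusted p = 0.0680), and Fdx1, at -0.40 (adjusted p = 0.0793), both electron carriers of steroid synthesis. The third with an unadjusted p under 0.05 was Nr0b1, a receptor that represses steroid synthesis genes, named after its values were seen, at 0.84 (adjusted p = 0.147). Of the 11, 6 had a difference above 0, and the median was 0.16. The summed level gives most weight to bright markers, among them Fdx1, Scarb1 and Fdxr (WT log2 means 2.27, 1.27 and 1.05). Nr5a1, the adrenal and gonadal receptor, was above background on all arrays and differed by -0.0081 (adjusted p = 0.992). The defining enzyme Cyp11a1 was above background on at most 1 of 4 arrays of either genotype.

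Of 11 liver markers, 3 rose and 2 fell, against 1.55% of all genes called higher and 3.82% called lower in MUT. Itih2 differed by 2.60 (limma adjusted p = 0.00413) and Afp by 2.23 (adjusted p = 0.00805), while Ambp fell by 1.59 and Rbp4 by 1.05 on the log2 scale. The third that rose was Alb, named after its values were seen, at 3.48 (limma adjusted p = 0.0233). Of the 11, 8 had a difference above 0, and the median was 1.29. The summed liver level was 115 to 172 in MUT and 142 to 235 in WT. That linear sum gives most weight to bright markers, among them Ambp and Rbp4, with WT means of 6.58 and 5.71 on the log2 scale. Among general epithelium markers 11 of 12 fell, and those of smallest adjusted p were Cldn4 at -2.13 and Krt8 at -1.56. Their differences were not the lowest of the list, which were -2.75 for Cldn3 and -2.51 for Cdh1, named after their values were seen. The list had a summed level of 35.3 to 55.7 in MUT and 96.7 to 134 in WT. Of the pancreatic epithelium markers, Mnx1 differed by -2.93 and Nkx6-1 by -3.66 (limma adjusted p = 0.00805 and 0.00959).

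Part of the markers of mesenchyme, mesothelium, endothelium and macrophages rose, against 1.55% of all genes called higher and 3.82% called lower in MUT. Of 8 mesenchyme markers 3 rose, with Pdgfra at 0.80 and Col1a2 at 0.67, and the list summed to 337 to 447 in MUT and 228 to 294 in WT. Of 6 mesothelium markers 2 rose, Upk1b by 0.63 and Bnc1 by 0.94, and the list summed to 7.10 to 10.7 in MUT and 3.45 to 5.43 in WT. Of 7 endothelium markers 2 rose, Emcn by 0.67 and Eng by 0.54, with sums of 19.0 to 24.9 in MUT and 13.2 to 16.0 in WT. Of 8 macrophage markers 4 rose, with Csf1r at 0.81 and Fcer1g at 0.66, and sums of 23.5 to 30.6 in MUT and 15.5 to 19.2 in WT. Of 4 stomach and intestine markers 2 fell, with Vil1 at -0.96 and Tff3 at -0.82, and sums of 0.73 to 1.07 in MUT and 0.999 to 1.28 in WT. The part of these cell types in the difference of Akr1b7 was not tested.

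Over the 8 arrays, the genes most like Akr1b7 in their log2 signal were Itih2 (Pearson r = 0.986), Pgap4 (0.981), D6Wsu163e (0.978), Ackr3 (0.974) and Calb1 (0.973). These correlations rest on the split between the genotypes, which the choice of Akr1b7 fixed. Itih2, an inter-alpha-trypsin inhibitor heavy chain, was 0.07, 0.34, -0.17 and -0.52 in MUT replicates 1 to 4 against -2.39, -2.88, -2.59 and -2.83 in WT replicates 1 to 4. Calb1, the calcium buffer calbindin, was -1.21, -1.92, -1.84 and -1.98 in MUT replicates 1 to 4 against -4.93, -4.74, -4.33 and -3.91 in WT replicates 1 to 4. Both had all MUT pools above all WT pools, as had 7.24% of all genes. Their choice by likeness to Akr1b7 favoured such a split. The r with Akr1b7 was 0.747 for Akr1b8, 0.647 for Akr1b10, 0.583 for Akr1b3 and 0.461 for Akr1a1.

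With the mean of each genotype subtracted, the genes most like Akr1b7 were Lgals3, the galectin-3 gene (r = 0.982), Fam228b (0.980), AK030738 (0.969), 1810027L02Rik (0.967) and 1500002C15Rik (0.961). In that comparison the r of the related enzymes fell to 0.120 for Akr1a1 and 0.236 to 0.252 for Akr1b8, Akr1b10 and Akr1b3. Of the 4 WT spots of Akr1b7 behind these values, 2 were not well above background. Lgals3 and the genes listed with it were picked for the highest r among 18496 genes on 8 arrays. Such a pick favours high r values, and how high r would reach by chance was not tested.

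The 4 differences under each processing setting are plotted side by side. Akr1b8, Akr1b3 and Akr1a1 had positive differences under all 17 alternatives, and none passed the threshold in any of them. Their ranges were 0.40 to 0.68 for Akr1b8, 0.18 to 0.38 for Akr1b3 and 0.06 to 0.20 for Akr1a1. Leaving out MUT replicate 3 gave the lowest value for each of the 3 genes.

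**Figure D5:**
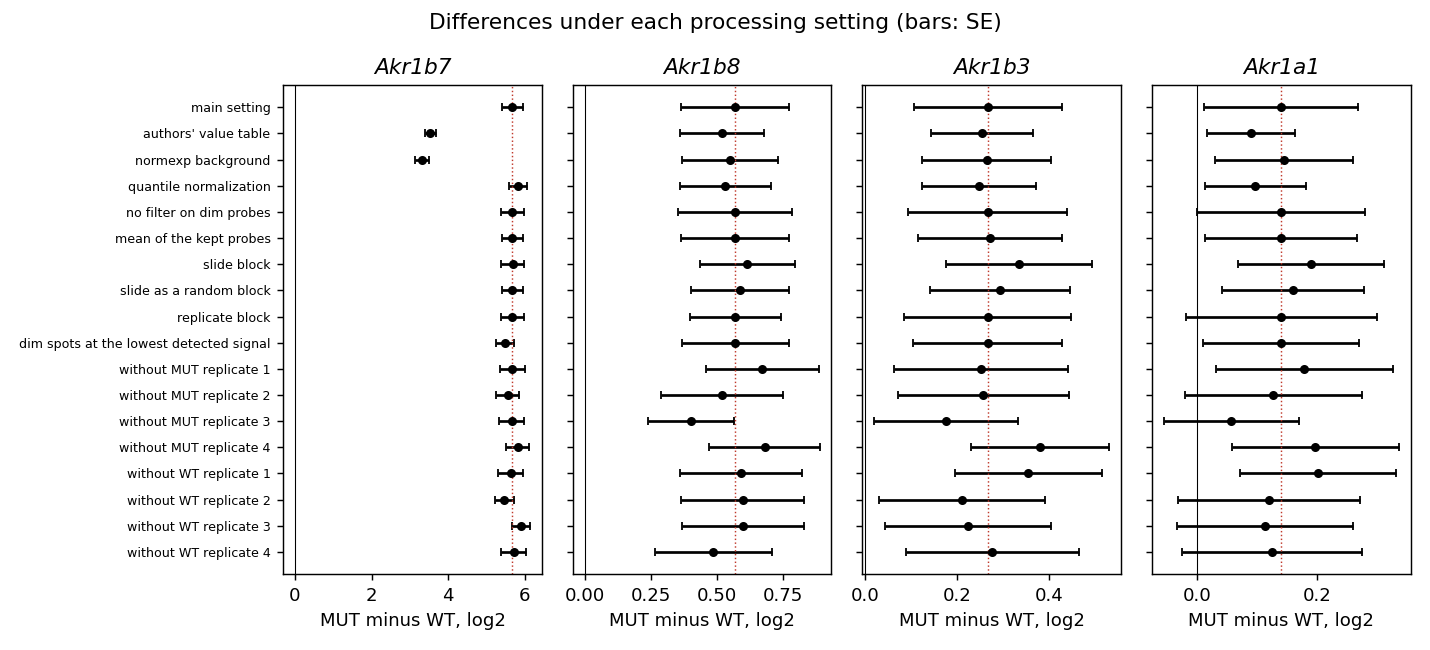
MUT minus WT difference on the log2 scale for Akr1b7, Akr1b8, Akr1b3 and Akr1a1 in the main setting and 17 alternatives, with SE bars, a solid line at 0, a dotted line at the main value and a scale of its own in each panel. Akr1b7 lies between 3.32 and 5.90 and stays the gene with the highest difference, for which it was chosen, while the others stay below 0.69.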

How the data were processed

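The 8 single-colour Agilent arrays were 4 MUT and 4 WT. Agilent Feature Extraction 9.5.3.1 made the authors' scanner files, per the file headers. Its processed signal, as deposited, is a linear intensity after background subtraction, with no normalization between arrays; the deposited spot flags are of another kind (other). The authors' value table holds intensity values with a median of 227 on every array; limma is named without a version per the submitters' processing notes. Its background treatment is not given in the sources used here.

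Log2 processed signals minus the 75th percentile of each array were used, with flagged spots left out and spots of a probe averaged. Probes had to be well above background on at least 4 of 8 arrays, and a gene was its kept probe of highest mean, giving 18506 genes. The 1639 control spots were left out. RefSeq accessions named 23374 probes, a like-named probe 4500 more, and the file's own symbol the other 13300. limma 3.58.1 in R 4.3.3 was fitted over all genes (two-sided, Benjamini-Hochberg, threshold 0.05), and exact permutation tests over arrays were run for single members. Positions are those the scanner files give (mm8), with no exon annotation used here. The number of arrays limits the precision.

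The members and lists were chosen with earlier results of these data known. Genes named are the members, genes of each pathway list past the threshold (up to 6), the 2 of smallest adjusted p in each marker list, Sox9 and the 5 most like Akr1b7 in each of 2 ways; neighbours of the cluster and Akr1c19, Akr1c14, Akr1c18 and Akr1cl were added. Same-numbered MUT and WT arrays did not deviate together, with correlations of -0.354 to 0.0875, so no pairing was used. Alternatives were the authors' table, normexp (offset 50), quantile normalization, no filter, the mean of kept probes, slide and replicate blocks, a floor for dim spots and leaving out each array. A pathway gene that passed the threshold is counted in the totals and is not reported here by itself.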

Additional observations from a re-analysis of the deposited data

Results flagged for a closer look

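Akr1b8 in WT replicate 4 had a log2 signal of 1.90, well below the other WT pools at 2.22 to 2.25, and its gap to the nearest made up 0.927 of the group's range. Akr1a1 in WT replicate 1 had 4.88, above the other WT pools at 4.61 to 4.65, with a gap of 0.86 of the range. Both shares exceed Dixon's critical value for 4 samples, which chance passes in about 1 of 20 groups. Without WT replicate 4 the difference of Akr1b8 was 0.49 (limma adjusted p = 0.360), and without WT replicate 1 that of Akr1a1 was 0.20 (adjusted p = 0.489).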

How the results depend on the processing

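Akr1b7 kept its direction and rank 1 under all 17 alternatives, which its choice for the highest difference on these arrays favoured. Its log2 difference of 5.68 became 3.53 in the authors' value table, for a cause that was not tested. It became 3.32 with normexp background, which adds an offset of 50. Leaving out single arrays gave 5.47 to 5.90. Akr1b8, Akr1b3 and Akr1a1 kept their direction and stayed short of the threshold under all 17. Counts of calls moved more. Genes higher in MUT were 287 in the main setting, 524 in the authors' table, 42 with no filter on dim probes, 579 with slide as a random block and 39 to 322 with single arrays left out, 39 being without MUT replicate 1. Genes lower in MUT were 707, then 377 with no filter and 333 to 649 with single arrays left out, 333 being without WT replicate 4. The higher share of calls was 28.9% in the main setting and 41.7% in the authors' table. Pathway list genes higher in MUT were 3 in the main setting, 6 in the authors' table, 0 with no filter, 0 with the mean of kept probes, 5 with a slide block, 7 with slide as a random block and 0 to 6 with single arrays left out. Those lower in MUT were 9, then 4 with no filter and 4 to 7 with single arrays left out. With the replicate number as a block the counts were 27 higher and 313 lower over all genes, and 0 higher and 4 lower in the pathway lists, with Gulo at an adjusted p of 0.0515 by limma; the numbers do not pair the pools. The cause of these shifts in counts was not tested. The limit for Akr1b7 is its WT signal, with mean spot intensities of 103 to 132 over local backgrounds of 75.5 to 99.5.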
